A study of Mus musculus with 11 samples.

Results

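Extracellular matrix genes were followed in RNA sequencing libraries of macrophages sorted from mice bearing tumors of Lewis lung carcinoma, a mouse lung cancer line that can be transplanted. The set held 42 genes of collagens, proteoglycans, matrix-modifying enzymes, stromal receptors and contractile proteins, out of 35118 genes in the table of tumor libraries and 35597 genes in the table of tumor and spleen libraries. All 42 were found in both tables by gene symbol. Members were chosen by name, and some were picked because they had been seen at a lower level in tumor macrophages with Cre. The comparison of tumor macrophages with and without Cre is therefore given as a description with no test, and only the comparison of tumor with spleen is tested. The 4 libraries without Cre from the tumor enter both comparisons. A choice by lower levels with Cre can therefore also favour genes that are high in these 4 libraries.

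All animals were C57BL/6 mice aged 6 to 8 weeks, and all of them, controls included, carried floxed Sin1 alleles and received 500000 Lewis lung carcinoma cells under the skin. Tissue was taken after 14 days. The group WT_TAM (4 libraries) was tumor macrophages of Sin1 fl/fl mice without Cre, and the group KO_TAM (4 libraries) was tumor macrophages of mice that also carried LysM-Cre. That Cre is driven by the Lyz2 locus and deletes floxed genes in cells of the myeloid lineage rather than in fibroblasts. The group WT_SP (3 libraries) was splenic macrophages of Sin1 fl/fl mice. Sin1 is a subunit of the kinase complex mTORC2. The tumor gate was CD45+ CD11b+ F4/80+ cells negative for Ly6G and Ly6C, and the spleen gate was CD45+ F4/80+ cells with low CD11b that were negative for TCRβ, Ly6G and Ly6C. No label ties a library to an animal of its own, so a p-value below reflects only how far these libraries lay from each other.

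Fibrillar collagens are secreted by fibroblasts and related mesenchymal cells as triple-helical chains that are trimmed, assembled into fibrils and crosslinked outside the cell. Type VI collagen forms beaded filaments around cells, type IV collagen and laminins form basement membranes, and small leucine-rich proteoglycans such as decorin bind to fibrils and space them. In tumors this matrix is made mainly by fibroblasts, pericytes and, in part, carcinoma cells, while macrophages are known for taking up and degrading collagen and for secreting regulators of the cells that make it.

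Library totals ran from 7639550 to 13118534 reads. Levels are in CPM, the standard depth-normalized unit of read counts, with recovered reads divided by the library's total and by the authors' size factor. A count of 3 reads was worth 0.220 to 0.465 CPM in the tumor libraries, and limits set from it cover counting error only. No pair of libraries in a group was as alike as sampling of reads alone would make them. WT_TAM replicate 4 was the shallowest library and had a mean correlation of 0.902 with the rest of its group, against 0.954 to 0.956 for the other 3 replicates. KO_TAM replicate 2 had 0.95, against 0.965 to 0.969 for the other KO_TAM libraries. WT_SP replicate 1 had 4804 CPM of hemoglobin and platelet genes, against 1457 and 1084 CPM in the other WT_SP libraries. Mapkap1, which codes for Sin1, had a mean of 46.8 CPM in KO_TAM and 57.0 CPM in WT_TAM with overlapping groups, and reads summed over the whole gene do not check the deletion of some of its exons, so the groups are named as labelled. Over all 12841 genes tested between KO_TAM and WT_TAM, limma called 0 genes at an adjusted p of 0.05, with 2350 genes at an unadjusted p under 0.05. With limma's voom, the counts were 0 and 2213. Between WT_TAM and WT_SP, limma called 3287 genes higher and 3364 lower in the tumor among 14239 genes tested.

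The labelled cells were checked by their markers. Macrophage genes, 13 of 14 found under a single identifier, summed to 36921 to 62918 CPM in WT_TAM, 13933 to 27609 CPM in KO_TAM and 6418 to 6840 CPM in WT_SP, and every one of them was read in every group. Much of the tumor sums was Lyz2, the lysozyme gene at whose locus the Cre is carried. Without Lyz2 the sums were 14628 to 29174 CPM in WT_TAM and 11189 to 14709 CPM in KO_TAM, which overlapped. Genes of splenic red pulp macrophages, a separate list, summed to 4483 to 5076 CPM in WT_SP. B cell and plasma cell genes summed to 8626 to 9602 CPM in WT_SP, above the sum of the general macrophage list in each of those libraries, and to 273 to 461 CPM in WT_TAM. Sorted cells of bulk libraries are mixtures, so fewer cells of a kind and less RNA per cell cannot be told apart in any result below.

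Matrix genes were a small share of the tumor libraries and a smaller share with Cre. The 42 genes together took 0.158%, 0.279%, 0.166% and 0.257% of the reads in WT_TAM replicates 1 to 4. In KO_TAM replicates 1 to 4 they took 0.0569%, 0.0168%, 0.0925% and 0.0504% of the reads. Each library with Cre had a smaller share than each library without it, and KO_TAM replicate 2 lay far below the other libraries with Cre. The mean level was lower in KO_TAM for 40 of the 42 genes (50.5% of all genes tested) and higher for Acta2 and Tagln (49.5%). For 31 of the 42, the highest KO_TAM library was below the lowest WT_TAM library, which was so for 8.69% of all genes tested. The groups overlapped for the other 11. These shares describe how the set was chosen, at least in part, and nothing is read from them.

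A minimum of reads for testing was passed by 40 members in the tumor comparison, all but Mgp and Igfbp7. The log2 fold change, on the log2(CPM + 0.5) scale that understates changes of genes with few reads, had a median of -1.87 over these 40, from -2.66 for Dcn to 0.40 for Tagln, beside a median of 0.00 over all genes tested. It was below -1 for 32 of the 40, against 5.81% of all genes. Leaving out both WT_TAM replicate 4 and KO_TAM replicate 2 gave a median of -1.36, and 32 of the 42 genes then had no overlap, against 13.3% of all genes.

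**Figure D1:**
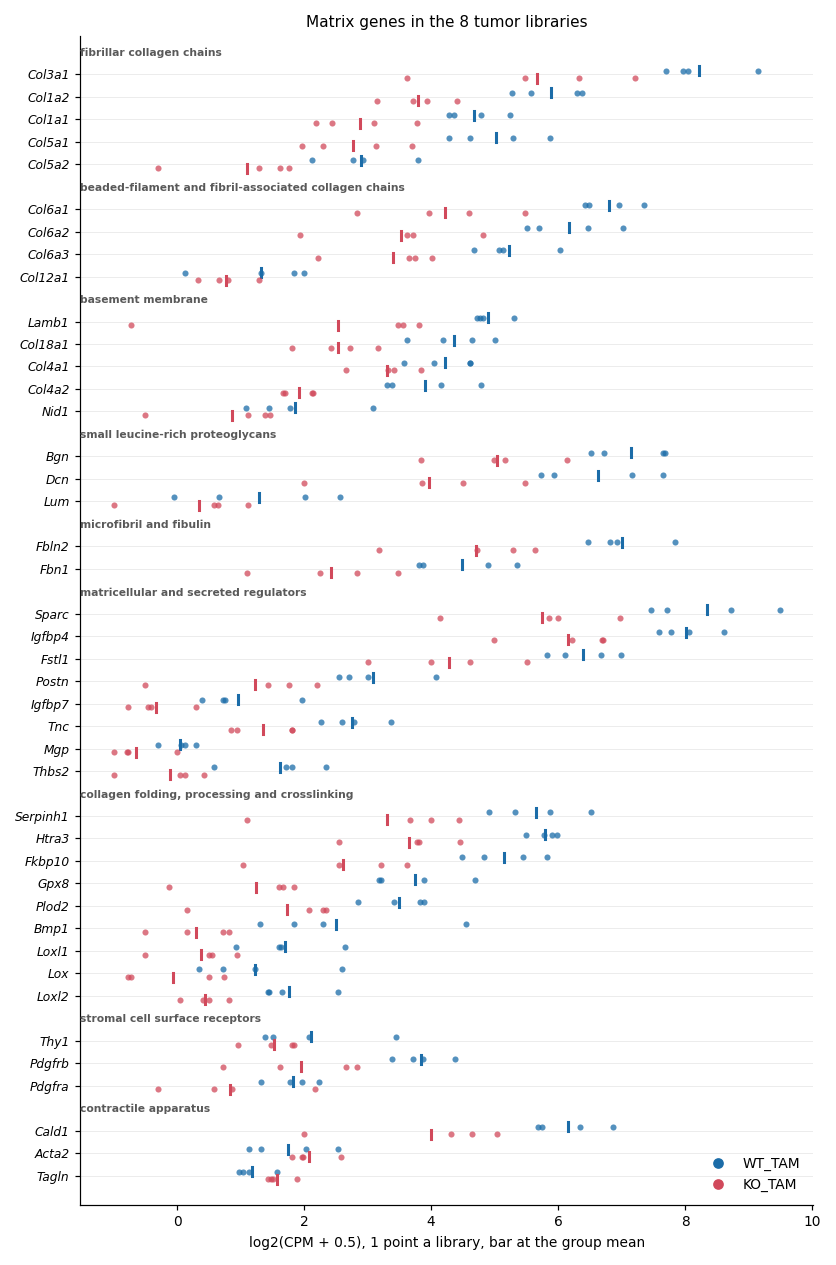
Levels of the 42 matrix genes in the 8 tumor libraries, on a log2(CPM + 0.5) axis, with genes grouped by role and ordered within a role by their level per length in WT_TAM. Points are libraries (4 WT_TAM, 4 KO_TAM) and short bars are group means. The KO_TAM points lie to the left of the WT_TAM points for 31 of the 42 genes, and a single KO_TAM library, replicate 2, is the lowest for 33 of them.

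Fibrillar collagen chains were 5 members, and all 5 had no overlap between the groups. Col3a1, the chain of type III collagen (ENSMUSG00000026043; chr1:45311538-45349706, plus strand, mm10), was by far the most abundant of them per length. It had 264, 566, 249 and 207 CPM in WT_TAM, here and below in the order of replicates 1 to 4, and 80.2, 11.8, 147 and 43.9 CPM in KO_TAM, a log2 fold change of -2.55 ± 0.65 (SE). WT_TAM replicate 2 stood above the other libraries without Cre. Without KO_TAM replicate 2 the log2 fold change was -1.87. Col1a2, the second chain of type I collagen (chr6:4504814-4541544, plus strand), had 38.3, 82.6, 46.9 and 78.4 CPM in WT_TAM and 12.7, 8.37, 20.6 and 14.7 CPM in KO_TAM (log2 fold change -2.08 ± 0.32, SE). Its WT_TAM libraries fell into a lower pair, replicates 1 and 3, and a higher pair, replicates 2 and 4, which is the order seen for many members.

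Col1a1, the other chain of type I collagen (chr11:94936224-94953042, plus strand), had the smallest difference of the role. Its levels were 19.0, 37.3, 19.99 and 27.1 CPM in WT_TAM and 8.08, 4.03, 13.3 and 4.94 CPM in KO_TAM, a log2 fold change of -1.79 ± 0.37 (SE). Col5a1 and Col5a2, chains of the type V collagen that nucleates fibrils, had log2 fold changes of -2.24 and -1.81, and Col5a2 was near the limit of detection in KO_TAM replicate 2, at 0.310 CPM.

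Per length, Col3a1 was 7.03 to 14.0 times as high as Col1a1 in WT_TAM and 8.19 to 10.2 times as high in 3 of the KO_TAM libraries. In KO_TAM replicate 2 the ratio was 2.69. The ratio of Col1a2 to Col1a1 was 1.73 to 2.48 in WT_TAM and 1.33 to 2.56 in KO_TAM, overlapping ranges.

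Because these chains had similar patterns, the bases before their start sites are shown for the 3 fibrillar chains with an entry in the RefSeq promoter table (build GRCm38.p6). Capitals mark matches on either strand to the TATA box searched as TATAAA, the box CCAAT and the GC box searched as GGGCGG. No match overlapped another in these 3 windows of 250 bases, which end at the RefSeq start site; for Col1a2 this lies downstream of the gene start given above.
Col1a2, chr6:4505368-4505617, plus strand: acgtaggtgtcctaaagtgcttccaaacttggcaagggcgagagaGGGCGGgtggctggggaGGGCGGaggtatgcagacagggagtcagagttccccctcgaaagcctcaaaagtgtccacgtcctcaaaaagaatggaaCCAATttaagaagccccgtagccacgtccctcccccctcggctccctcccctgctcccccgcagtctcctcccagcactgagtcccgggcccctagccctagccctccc
Col3a1, chr1:45311288-45311537, plus strand: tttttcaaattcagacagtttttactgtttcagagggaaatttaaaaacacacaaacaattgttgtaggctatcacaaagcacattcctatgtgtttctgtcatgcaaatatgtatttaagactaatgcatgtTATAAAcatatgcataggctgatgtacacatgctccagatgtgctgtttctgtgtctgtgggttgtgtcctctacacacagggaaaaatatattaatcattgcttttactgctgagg
Col5a1, chr2:27886175-27886424, plus strand: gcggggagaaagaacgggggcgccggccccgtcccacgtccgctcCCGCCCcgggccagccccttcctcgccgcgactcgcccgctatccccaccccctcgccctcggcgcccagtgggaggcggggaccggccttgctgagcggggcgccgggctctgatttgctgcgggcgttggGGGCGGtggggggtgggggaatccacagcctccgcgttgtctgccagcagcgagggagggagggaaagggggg
The 3 windows differed in these motifs. Col1a2 held GGGCGG at 2 places and CCAAT with its first base at -109 from the start site, Col3a1 held only TATAAA, at -117, and Col5a1 held only GGGCGG, at 2 places. Promoters of 27 of the 42 genes were matched, with 32 start sites. The TATA box was in 7 of these 32 (21.9%), the CCAAT box in 9 (28.1%) and the GC box in 16, against 12.4%, 33.8% and 32.7% of all 32851 windows of that length, and matches to GGGCGG in 1 window could overlap. The CArG box, the motif of serum response factor, was in none of the 32 and in 1.47% of all windows. These are matches to letters, not binding sites.

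Type VI collagen and the fibril-associated chain Col12a1 made up 4 members, and 3 had no overlap. Col6a1 (chr10:76708792-76726168, minus strand) had 84.9, 163, 88.8 and 124 CPM in WT_TAM and 23.6, 6.61, 43.9 and 15.2 CPM in KO_TAM, a log2 fold change of -2.58 ± 0.48 (SE). Col6a2 (chr10:76595762-76623630, minus strand), its partner chain, had 51.4, 87.7, 44.9 and 130 CPM in WT_TAM and 12.7, 3.31, 27.6 and 11.7 CPM in KO_TAM, a log2 fold change of -2.65 ± 0.55 (SE). In each of these chains KO_TAM replicate 3 was the highest and replicate 2 the lowest library with Cre. Per length, Col6a1 was 0.992 to 2.06 times Col6a2 in WT_TAM and 1.35 to 2.08 times in KO_TAM. Col6a3, the largest chain of the filament, had a log2 fold change of -1.82.

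Col12a1, which decorates fibril surfaces, had the smallest difference of this role. It had 0.586, 3.48, 2.01 and 3.10 CPM in WT_TAM and 0.762, 1.24, 1.09 and 1.94 CPM in KO_TAM, so that the groups overlapped (log2 fold change -0.55 ± 0.43, SE).

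Of the 5 basement membrane members, 3 had no overlap. Lamb1, the laminin beta-1 chain (chr12:31265234-31329644, plus strand), had 27.6, 38.9, 26.0 and 26.7 CPM in WT_TAM. In KO_TAM it had 11.3, 0.103, 13.5 and 10.7 CPM, so replicate 2 stood almost at 0, and the log2 fold change was -2.37 ± 0.85 (SE) with it and -1.28 without it. Col18a1, whose C-terminal fragment is endostatin (chr10:77052178-77166548, minus strand), had 17.7, 24.4, 11.7 and 31.5 CPM in WT_TAM and 8.46, 6.10, 4.84 and 2.998 CPM in KO_TAM (log2 fold change -1.83 ± 0.36, SE). Its lowest library with Cre was replicate 4, unlike the collagens above. Nid1, nidogen, which links laminin to type IV collagen, had 1.61, 7.98, 2.24 and 2.94 CPM in WT_TAM and 1.68, 0.207, 2.26 and 2.12 CPM in KO_TAM, with overlap.

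The 2 chains of type IV collagen differed in their ratio. Col4a1 (chr8:11198423-11312826, minus strand) had the smallest difference of the role, with 11.4, 24.0, 16.1 and 24.0 CPM in WT_TAM against 13.9, 5.79, 10.2 and 9.52 CPM in KO_TAM (log2 fold change -0.90 ± 0.32, SE). Col4a2 (chr8:11312805-11449287, plus strand) had 9.97, 17.3, 9.34 and 27.0 CPM in WT_TAM against 2.74, 2.69, 3.93 and 3.88 CPM in KO_TAM (log2 fold change -1.99 ± 0.35, SE). Per length, Col4a1 was 1.08, 1.31, 1.62 and 0.840 times Col4a2 in WT_TAM and 4.77, 2.03, 2.45 and 2.32 times in KO_TAM, ranges that did not overlap. In WT_SP the ratio was 1.51, 1.84 and 1.80. The genes start head to head and their annotations overlap by 22 bases, and the sources used here do not give the strand setting of the counting, so reads in that stretch cannot be assigned.

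Small leucine-rich proteoglycans were 3 members. Bgn, biglycan (chrX:73483602-73495933, plus strand), had 91.2, 200, 105 and 206 CPM in WT_TAM and 35.2, 13.8, 70.0 and 31.4 CPM in KO_TAM, a log2 fold change of -2.11 ± 0.45 (SE). Dcn, decorin (chr10:97479609-97518143, plus strand), had 52.7, 143, 60.4 and 200 CPM in WT_TAM and 14.0, 3.51, 44.1 and 22.0 CPM in KO_TAM, a log2 fold change of -2.66 ± 0.68 (SE), or -2.01 without KO_TAM replicate 2. Neither gene's groups overlapped, although Dcn in KO_TAM replicate 3 came near the lowest library without Cre. Lum, lumican, had few reads, with 3.52, 5.43, 0.463 and 1.08 CPM in WT_TAM and 1.07, 0, 1.00 and 1.68 CPM in KO_TAM, and its groups overlapped (log2 fold change -0.96 ± 0.63, SE).

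Both microfibril and fibulin members had no overlap. Fbln2, fibulin-2 (chr6:91212455-91272540, plus strand), had 112, 227, 88.5 and 121 CPM in WT_TAM and 38.5, 8.58, 49.2 and 25.9 CPM in KO_TAM, a log2 fold change of -2.30 ± 0.49 (SE). Fbn1, fibrillin-1, the backbone of microfibrils (chr2:125300594-125507993, minus strand), had 14.1, 29.4, 13.5 and 40.5 CPM in WT_TAM and 6.63, 1.65, 10.7 and 4.23 CPM in KO_TAM, a log2 fold change of -2.07 ± 0.52 (SE).

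Matricellular and secreted regulators were 8 members, and 7 had no overlap. Sparc, a collagen-binding secreted protein (chr11:55394500-55423183, minus strand), had the highest level per length of all 42 genes in WT_TAM, at 233 CPM per kilobase. It had 176, 422, 209 and 717 CPM in WT_TAM and 57.2, 17.1, 126 and 63.2 CPM in KO_TAM, a log2 fold change of -2.61 ± 0.59 (SE). Without both WT_TAM replicate 4, its highest library, and KO_TAM replicate 2, its lowest, the log2 fold change was -1.69. Igfbp4, an insulin-like growth factor binding protein (chr11:99041244-99054392, plus strand), had 220, 267, 191 and 390 CPM in WT_TAM and 102, 31.3, 104 and 73.8 CPM in KO_TAM, a log2 fold change of -1.86 ± 0.38 (SE).

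The smallest difference of this role among genes with enough reads was that of Tnc, tenascin-C. It had 6.38, 9.84, 4.32 and 5.58 CPM in WT_TAM and 1.30, 2.997, 1.42 and 2.998 CPM in KO_TAM, a log2 fold change of -1.41 ± 0.35 (SE), and here KO_TAM replicate 2 was not the lowest. Fstl1, Postn and Thbs2, which code for follistatin-like 1, periostin and thrombospondin-2, had log2 fold changes of -2.11, -1.85 and -1.72. The value of Thbs2 rests on few reads, since its mean was 0.488 CPM in KO_TAM. Mgp, matrix Gla protein, and Igfbp7 did not have enough reads to be tested. Mgp was at or under 0.733 CPM in every tumor library, and Igfbp7 had 0.806, 1.19, 1.16 and 3.41 CPM in WT_TAM and 0.229, 0.723, 0.251 and 0.0882 CPM in KO_TAM.

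Enzymes and chaperones of collagen folding, processing and crosslinking were 9 members, of which 7 had no overlap. Serpinh1, the collagen chaperone HSP47 (chr7:99345376-99353239, minus strand), had 29.5, 58.2, 39.4 and 91.0 CPM in WT_TAM and 15.4, 1.65, 21.1 and 12.3 CPM in KO_TAM, a log2 fold change of -2.35 ± 0.65 (SE), or -1.62 without KO_TAM replicate 2. Htra3, a secreted serine protease (chr5:35652023-35679782, minus strand), had 44.6, 62.4, 54.6 and 59.0 CPM in WT_TAM and 13.3, 5.37, 13.5 and 21.5 CPM in KO_TAM, a log2 fold change of -2.13 ± 0.35 (SE). The libraries without Cre were closer together for Htra3 than for most members, and those with Cre were highest in replicate 4. Fkbp10, a collagen-folding prolyl isomerase, and Gpx8, a glutathione peroxidase of the endoplasmic reticulum, had log2 fold changes of -2.54 and -2.50.

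Plod2, a lysyl hydroxylase, and Bmp1, the procollagen C-proteinase, had log2 fold changes of -1.77 and -2.20. For Bmp1 a single library decided the size, since WT_TAM replicate 4 had 22.9 CPM and the other 3 had 1.98, 4.41 and 3.09 CPM. Without that library the log2 fold change was -1.52, and KO_TAM had 1.14, 0.207, 1.25 and 0.617 CPM. The lysyl oxidases, which crosslink collagen and elastin, were low in every library. Lox had the smallest difference of the role, with 1.83, 5.52, 1.16 and 0.775 CPM in WT_TAM and 0.915, 0.103, 1.17 and 0.0882 CPM in KO_TAM (log2 fold change -1.29 ± 0.54, SE). Its groups overlapped, as did those of Loxl1 (-1.33), while those of Loxl2 (-1.33) did not.

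Of the 3 stromal surface receptors only Pdgfrb had no overlap. Pdgfrb, the PDGF receptor of pericytes and fibroblasts, had 12.7, 20.4, 9.88 and 14.1 CPM in WT_TAM and 5.79, 2.58, 6.60 and 1.15 CPM in KO_TAM, a log2 fold change of -1.88 ± 0.45 (SE). Pdgfra, the receptor that marks many fibroblasts, had 2.93, 3.39, 2.01 and 4.18 CPM in WT_TAM and 0.991, 0.310, 4.01 and 1.32 CPM in KO_TAM (log2 fold change -0.996 ± 0.48, SE). KO_TAM replicate 3 lay among the libraries without Cre. Thy1, a surface glycoprotein of fibroblasts and of T cells, had 2.35, 2.12, 3.71 and 10.4 CPM in WT_TAM and 1.45, 2.27, 3.01 and 3.09 CPM in KO_TAM (log2 fold change -0.58 ± 0.45, SE), with overlap.

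The contractile members parted. Cald1, caldesmon (chr6:34598500-34775473, plus strand), had 52.8, 80.5, 50.7 and 116 CPM in WT_TAM and 24.5, 3.51, 32.2 and 19.3 CPM in KO_TAM, a log2 fold change of -2.16 ± 0.58 (SE), or -1.50 without KO_TAM replicate 2. Acta2, smooth muscle actin and a marker of activated fibroblasts, had 1.69, 3.56, 2.01 and 5.27 CPM in WT_TAM and 3.43, 2.997, 3.42 and 5.47 CPM in KO_TAM (log2 fold change 0.33 ± 0.36, SE). Tagln, transgelin, had 1.69, 2.46, 1.47 and 1.55 CPM in WT_TAM and 2.29, 3.20, 2.34 and 2.20 CPM in KO_TAM (0.40 ± 0.27, SE). The groups overlapped for Acta2 and Tagln, and neither had the far lower level in KO_TAM replicate 2 that Lamb1 or Col3a1 had.

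Members varied between libraries of a group more than most genes. Their median standard deviation on the log2 scale was 0.92 in KO_TAM and 0.62 in WT_TAM, against 0.31 and 0.42 over all genes tested. KO_TAM replicate 2 was the lowest of its group for 33 of the 42 genes and replicate 3 the highest for 29. In WT_TAM replicate 4 was the highest for 22 genes and replicate 2 for 19. Relative to the WT_TAM mean, the median member lay at -1.57, -3.02, -1.13 and -1.82 (log2) in KO_TAM replicates 1 to 4. Leaving out KO_TAM replicate 2 moved the fold change of 5 members by over 1.5 times (Col3a1, Lamb1, Dcn, Serpinh1 and Cald1), and leaving out WT_TAM replicate 4 moved that of Bmp1.

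Most members followed the mean of the set within groups. As deviations from the group means over the 8 tumor libraries, the median correlation of a member with the mean of the 40 members past the minimum of reads was 0.85, and 34 of the 40 were above 0.5. Those points share their libraries, and the mean contains each member. In that mean KO_TAM replicate 2 lay at -1.06, against -0.43 to 0.68 in the other libraries, so the correlations lean on it. They were not computed without it. No share of all tested genes above 0.5 stands beside them, so nothing particular to the set is read from them. Bgn (0.98), Fbn1 (0.97), Col6a2 (0.97) and Fkbp10 (0.97) followed the mean most closely. Tnc (-0.24) and Tagln (-0.23) did not follow it, and Thy1 (0.24), Col18a1 (0.27) and Col12a1 (0.34) did so weakly.

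The 10 other genes most like the members by this measure, with correlations from 0.97 to 1.00, were Erbb2, Ahrr, Anxa2, Itgb4, Cpe, Epdr1, Crabp2, Ikbip, Caml and Entpd2. They were picked as the highest of all tested genes outside the set over 8 libraries, so high correlations follow from the choice. Itgb4, the integrin chain of hemidesmosomes, had 19.8 to 48.2 CPM in WT_TAM and 2.48 to 13.0 CPM in KO_TAM, and Erbb2, a receptor of the EGF receptor family, had 4.01 to 9.45 and 0.207 to 3.51 CPM. Anxa2, annexin A2, was far more abundant and its groups overlapped, with 2153 to 2902 CPM in WT_TAM and 1522 to 2393 CPM in KO_TAM. The groups also overlapped for Ahrr and Caml (log2 fold changes -0.41 and -0.05), and KO_TAM was lower without overlap for the others. Between WT_TAM and WT_SP, limma did not call Erbb2, Ahrr, Epdr1 and Caml, and called the others higher in WT_TAM.

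Markers of cells that make matrix were read beside these genes. Of 19 fibroblast markers that are no members, all were found and 9 had enough reads to be tested, with a median log2 fold change of -1.56 between KO_TAM and WT_TAM. KO_TAM was lower without overlap for 2 of these 9, against 8.69% of all genes tested, and higher without overlap for 0, against 6.37%. The 19 summed to 268 to 490 CPM in WT_TAM and 393 to 453 CPM in KO_TAM, and most of this was Pdpn, podoplanin, at 201 to 344 and 285 to 386 CPM. The transcription factor Prrx1 had 4.84 to 12.1 CPM in WT_TAM and 0 to 4.18 CPM in KO_TAM. Fap, Twist1, Tcf21, Meox1, Cdh11, Gas1, Omd, Aspn and Clec3b had group means under 1 CPM in WT_TAM and in KO_TAM. In KO_TAM replicate 2, 11 of the 19 had 0 reads, against 1 to 3 in every other tumor library.

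Pericyte and smooth muscle markers, 12 found, summed to 24.7 to 94.9 CPM in WT_TAM and 4.75 to 23.5 CPM in KO_TAM. Only Cspg4, the NG2 proteoglycan, had enough reads to be tested, at 20.2 to 86.9 and 1.55 to 15.4 CPM, and all the others, Rgs5, Kcnj8, Abcc9 and Notch3 among them, had group means under 1.3 CPM. Of the epithelial and carcinoma markers, 14 of 16 were found, and they summed to 209 to 361 CPM in WT_TAM and 189 to 406 CPM in KO_TAM, mostly Cdh1. Without Cdh1 the sums were 57.3 to 126 CPM and 21.8 to 32.1 CPM, which did not overlap. Sox9 had 48.0 to 97.6 CPM in WT_TAM and 7.03 to 26.1 CPM in KO_TAM, while the keratins Krt7, Krt8 and Krt19 had means under 0.3 CPM in each group. The hemoglobin and platelet genes summed to 1027 and 1716 CPM in the WT_TAM libraries highest in matrix genes, replicates 2 and 4, and to 432 and 506 CPM in replicates 1 and 3. The part of these cells in the lower matrix levels of KO_TAM was not tested.

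**Figure D2:**
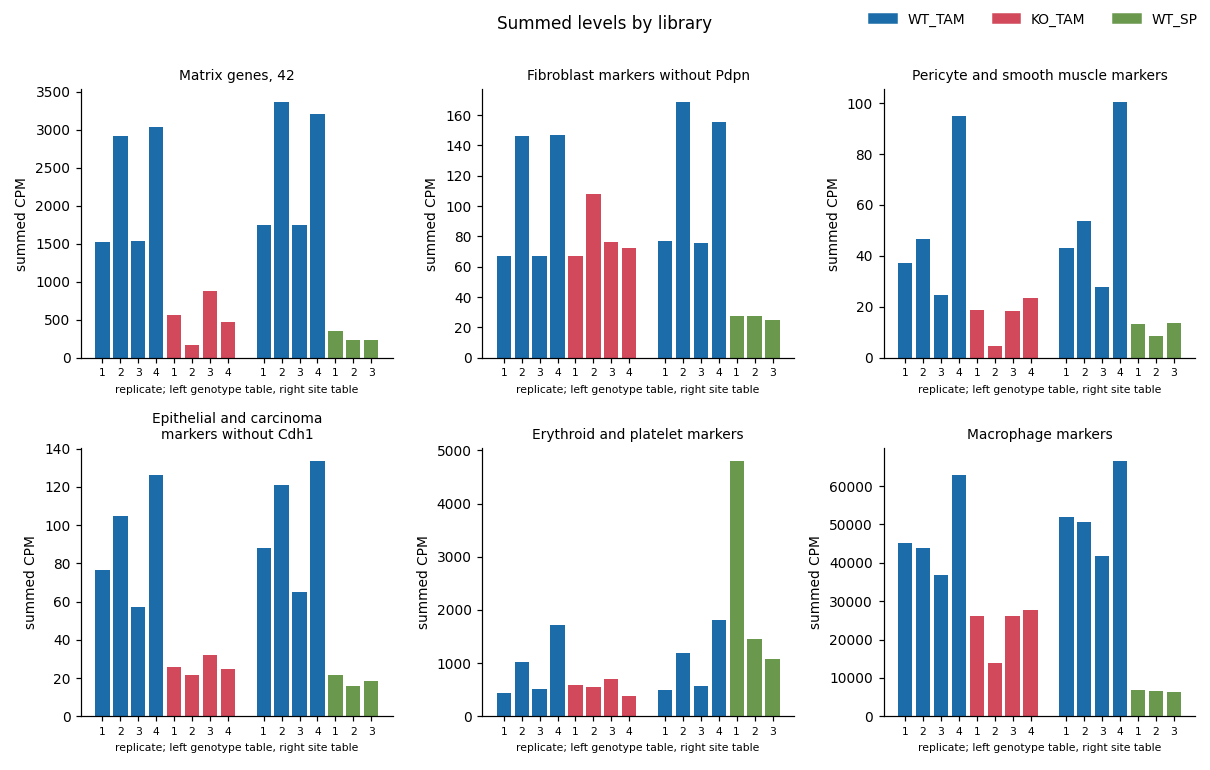
Summed CPM by library for the 42 matrix genes and for 5 lists of cell type markers, with bars starting at 0. In each panel the left bars are the 8 libraries of the tumor table and the right bars the 7 of the tumor and spleen table, where the WT_TAM libraries appear again with other size factors. Matrix genes, pericyte markers and epithelial markers without Cdh1 are each lowest in KO_TAM among the tumor libraries, as are macrophage markers with Lyz2 included, while the fibroblast sum without Pdpn overlaps between the groups. In KO_TAM replicate 2, Pi16 alone made up 103 of the 108 CPM of that sum. In WT_TAM, Cspg4 made up most of the pericyte sum, and Sox9 was a large part of the epithelial sum without Cdh1.

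The comparison of tumor with spleen asked how far the members are particular to macrophages sorted from the tumor. Most of them were higher there. Of the 42, limma called 36 higher and 2 lower in WT_TAM than in WT_SP, against 23.1% and 23.6% of all genes tested, with Benjamini-Hochberg adjustment over all genes. It did not call 3 (Col12a1, Igfbp7 and Tagln), and Mgp had too few reads to be tested. Some members were picked for a lower level in KO_TAM, which can favour genes high in these WT_TAM libraries. Many of the members called higher also passed the minimum of reads only through WT_TAM. The counts are therefore not independent of how the genes were chosen and filtered. All WT_TAM libraries lay above all WT_SP libraries for 37 of the 42, against 26.3% of all genes, and below them for 2, against 29.8%. Without both WT_TAM replicate 4 and WT_SP replicate 1 the number above was 37, while the share of all genes was higher, at 37.1%. The median log2 fold change over the 41 tested members was 3.35, beside -0.07 over all genes. It was 3.41 with Lox, which had 0 reads in WT_SP, at the bound that 3 reads per library allow.

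In this table the members took 0.0420%, 0.0282% and 0.0274% of the reads in WT_SP replicates 1 to 3. WT_SP replicate 1 was the highest of its group for 31 of the 42 genes. It had 153 reads of Fbln2 against 0 and 1 in replicates 2 and 3, 463 of Col3a1 against 34 and 30, and 73 of Col6a2 against 1 and 8. Without WT_SP replicate 1 the fold change of 10 members moved by over 1.5 times, each time to a larger difference. Without WT_SP replicate 2 or 3 that of 3 members each moved so, each time to a smaller one. With scaling by the library total alone, the log2 fold change over all genes had a median of -0.52, and limma called 2135 genes higher and 5629 lower, of which 34 and 3 were members.

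**Figure D3:**
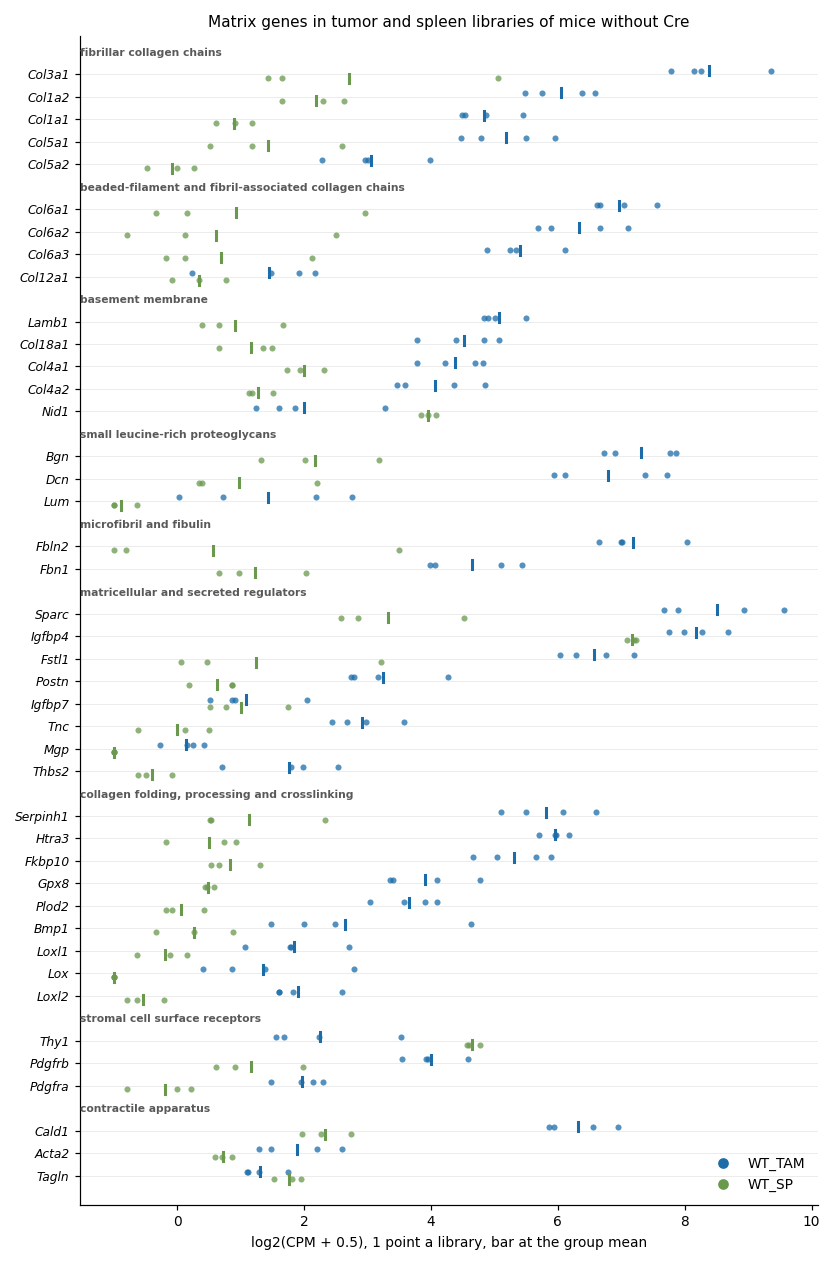
Levels of the 42 matrix genes in 4 WT_TAM and 3 WT_SP libraries, on a log2(CPM + 0.5) axis, ordered as in the plot of the tumor libraries. Points are libraries and short bars are group means. WT_SP points lie near the left edge for most genes, and Igfbp4, Nid1 and Thy1 are exceptions with WT_SP levels of 135 to 149, 13.8 to 16.4 and 23.3 to 26.9 CPM.

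All 5 fibrillar chains were called higher in the tumor. Col3a1 had 304, 653, 282 and 219 CPM in WT_TAM and 32.6, 2.62 and 2.20 CPM in WT_SP, where the log2 fold change was 5.67 ± 0.82 (SE; limma adjusted p = 0.000598), or 6.84 without WT_SP replicate 1. Col1a2 had 44.1, 95.4, 53.1 and 83.0 CPM in WT_TAM and 5.71, 2.62 and 4.40 CPM in WT_SP (3.86 ± 0.34, SE; limma adjusted p = 3.28e-05). Col1a1 had 21.9, 43.1, 22.6 and 28.7 CPM in WT_TAM and 1.76, 1.39 and 1.03 CPM in WT_SP (3.93 ± 0.29, SE; limma adjusted p = 1.27e-05). Per length, Col3a1 was 17.1 times Col1a1 in WT_SP replicate 1 and 1.74 and 1.97 times in replicates 2 and 3. The WT_TAM ratios, 7.03 to 14.0, lay within that range, so the groups overlapped. The WT_SP ratios rest on 25, 18 and 14 reads of Col1a1.

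Of the other collagens, the 3 chains of type VI were called higher and Col12a1 was not. Col6a1 had 97.8, 188, 101 and 131 CPM in WT_TAM and 7.26, 0.618 and 0.293 CPM in WT_SP, where the log2 fold change was 6.04 ± 0.70 (SE; limma adjusted p = 0.000167). Col6a2 had 59.2, 101, 50.9 and 137 CPM in WT_TAM and 5.15, 0.0772 and 0.587 CPM in WT_SP (5.73 ± 0.72, SE; limma adjusted p = 0.000256). For Col12a1 it was 1.11 ± 0.47 (SE; limma adjusted p = 0.0857), and without WT_TAM replicate 1 it was called (adjusted p = 0.00932).

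Basement membrane genes went in both directions. Col4a1, Col4a2, Col18a1 and Lamb1 were called higher in the tumor, with log2 fold changes of 2.39, 2.79, 3.35 and 4.16. Nid1 was called lower, with 1.86, 9.21, 2.54 and 3.11 CPM in WT_TAM and 16.4, 14.98 and 13.8 CPM in WT_SP, where the log2 fold change was -1.96 ± 0.45 (SE; limma adjusted p = 0.00704). Its groups did not overlap.

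The 3 proteoglycans and both microfibril members were called higher. Bgn had 105, 231, 119 and 218 CPM in WT_TAM and 8.53, 2.01 and 3.52 CPM in WT_SP, where the log2 fold change was 5.14 ± 0.46 (SE; limma adjusted p = 3.58e-05). Dcn had 60.7, 166, 68.5 and 211 CPM in WT_TAM and 4.09, 0.772 and 0.807 CPM in WT_SP (5.81 ± 0.59, SE; limma adjusted p = 7.32e-05). Lum had 2 reads in all of WT_SP, and its call (limma adjusted p = 0.0144) was lost without WT_SP replicate 2 or 3, at 0.0530 and 0.0532. Fbln2, with the largest log2 fold change of the set, had 129, 262, 100 and 128 CPM in WT_TAM and 10.8, 0 and 0.0733 CPM in WT_SP (6.61 ± 0.99, SE; limma adjusted p = 0.000718). The size of that change turned on single WT_SP libraries, being 8.08 without replicate 1 and 5.83 without replicate 2. Fbn1 had a log2 fold change of 3.42 (limma adjusted p = 0.000405).

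Of the 8 matricellular and secreted regulators, 6 were called higher. Sparc had 203, 487, 236 and 759 CPM in WT_TAM and 22.6, 5.48 and 6.67 CPM in WT_SP, where the log2 fold change was 5.20 ± 0.58 (SE; limma adjusted p = 0.00013). Igfbp4 differed least among those called, with 253, 308, 216 and 412 CPM in WT_TAM and 149, 147 and 135 CPM in WT_SP (1.00 ± 0.23, SE; limma adjusted p = 0.0074), and the call was lost under scaling by the library total alone (0.53; adjusted p = 0.0554). It was the only member above 100 CPM in the spleen. Tnc, Postn, Thbs2 and Fstl1 had log2 fold changes of 2.91, 2.61, 2.15 and 5.32. Igfbp7 was not called (limma adjusted p = 0.911), and the sign of its small difference changed between settings. Mgp had 0.844, 0.686, 0.612 and 0.328 CPM in WT_TAM and 0 reads in WT_SP, at least 2.79-fold higher in the mean against 3 reads per library.

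The 9 folding, processing and crosslinking members were called higher, Lox among them with no reads in the spleen. Htra3 had 51.3, 72.0, 61.8 and 62.5 CPM in WT_TAM and 1.41, 0.386 and 1.17 CPM in WT_SP, where the log2 fold change was 5.45 ± 0.29 (SE; limma adjusted p = 2.08e-06). Serpinh1 had 33.9, 67.2, 44.7 and 96.2 CPM in WT_TAM and 4.51, 0.926 and 0.953 CPM in WT_SP (4.69 ± 0.51, SE; limma adjusted p = 0.000117). Lox had 2.11, 6.37, 1.31 and 0.820 CPM in WT_TAM and 0 reads in each WT_SP library, at least 12.0-fold higher in the mean against 3 reads per library. It passed the minimum of reads only through WT_TAM, so its call is no support of its own. The same holds for Lum, Thbs2, Loxl1, Loxl2, Pdgfra and Col5a2, for which no WT_SP library reached that minimum. Other members, Fbln2, Col6a1 and Dcn among them, did not reach it in every WT_SP library, so they too passed through WT_TAM. Bmp1 was called with all libraries (limma adjusted p = 0.0218) and not without WT_SP replicate 2 or 3 (0.0662 and 0.0873). The remaining 5, Fkbp10, Gpx8, Plod2, Loxl1 and Loxl2, had log2 fold changes of 4.48, 3.41, 3.60, 2.04 and 2.45.

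Among the receptors, Pdgfra and Pdgfrb were called higher in the tumor and Thy1 lower. Pdgfrb had 14.6, 23.5, 11.2 and 14.9 CPM in WT_TAM and 3.45, 1.39 and 1.03 CPM in WT_SP (log2 fold change 2.83 ± 0.38, SE; limma adjusted p = 0.000404). Pdgfra had 3.38, 3.92, 2.27 and 4.43 CPM in WT_TAM and 0.493, 0.0772 and 0.660 CPM in WT_SP (2.16 ± 0.34, SE; limma adjusted p = 0.000872). Thy1 had 2.70, 2.45, 4.20 and 10.98 CPM in WT_TAM and 23.3, 26.9 and 23.7 CPM in WT_SP (-2.40 ± 0.45, SE; limma adjusted p = 0.00242). Of the T cell and NK cell genes, 12 of 12 were called lower in WT_TAM, against 23.6% of all genes tested. They summed to 142 to 240 CPM in WT_TAM and 1785 to 1902 CPM in WT_SP. Their part in the Thy1 difference was not tested.

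Cald1 and Acta2 of the contractile members were called higher and Tagln was not. Cald1 had 60.9, 93.0, 57.4 and 123 CPM in WT_TAM and 6.20, 3.40 and 4.33 CPM in WT_SP (log2 fold change 3.997 ± 0.32, SE; limma adjusted p = 1.79e-05). Acta2 had 1.94, 4.12, 2.27 and 5.57 CPM in WT_TAM and 1.13, 1.00 and 1.32 CPM in WT_SP (1.17 ± 0.36, SE; limma adjusted p = 0.0255), a call that was lost without WT_TAM replicate 2 (adjusted p = 0.0625) without any of the 3 WT_SP libraries (0.0636 to 0.0879), or under scaling by the library total alone (0.0610). Tagln had 1.94, 2.84, 1.66 and 1.64 CPM in WT_TAM and 3.38, 2.39 and 3.01 CPM in WT_SP (-0.46 ± 0.27, SE; limma adjusted p = 0.197).

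**Figure D4:**
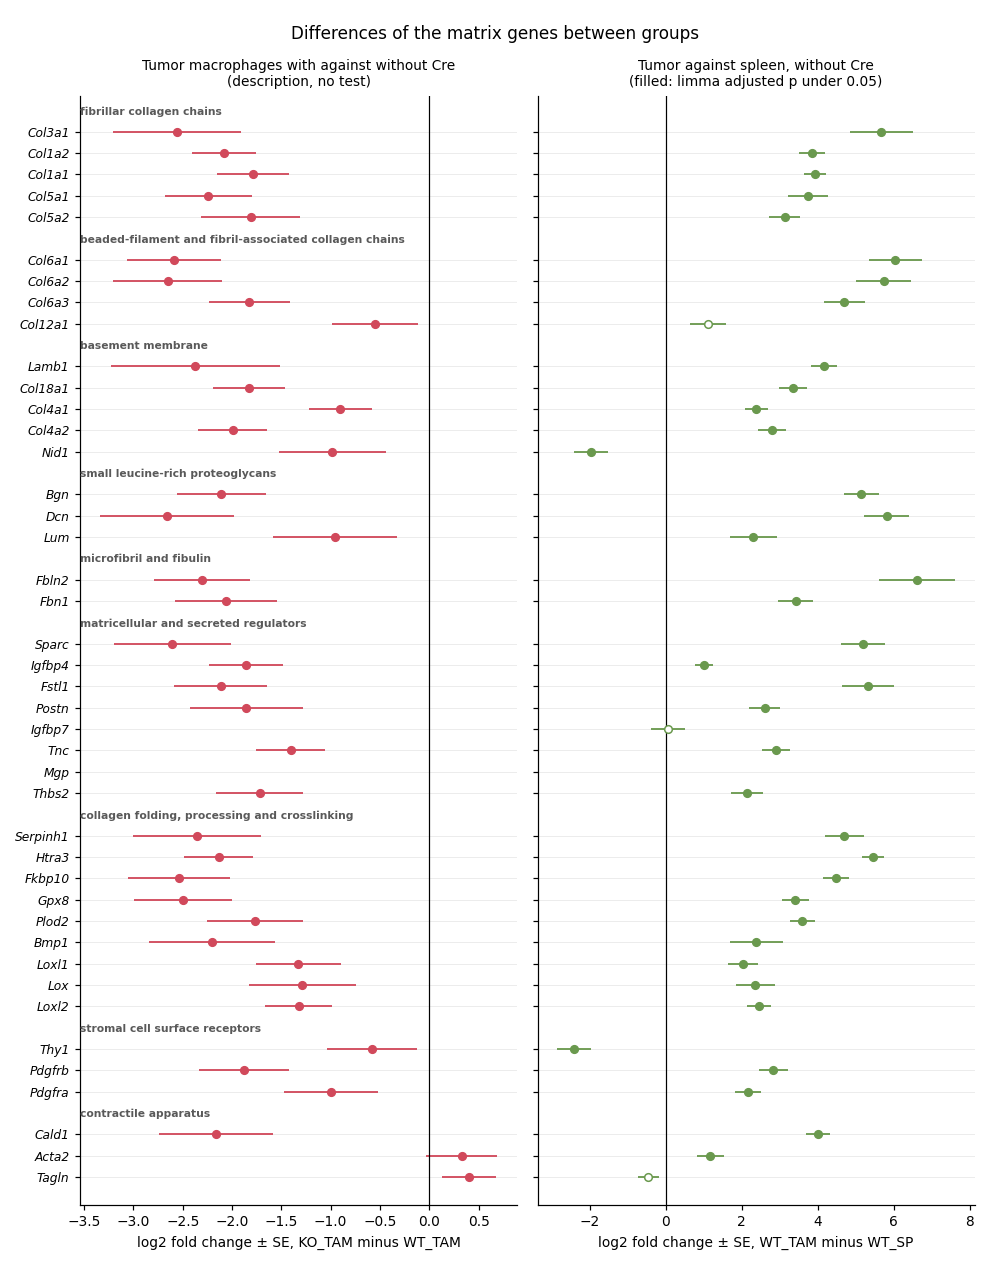
Log2 fold change ± SE of each matrix gene between KO_TAM and WT_TAM (left, 40 genes, a description with no test) and between WT_TAM and WT_SP (right, 41 genes, filled where the limma adjusted p was under 0.05). Genes without a point had too few reads, and Lox is drawn at its fitted value although it had 0 reads in WT_SP. On the left all points but Acta2 and Tagln are below 0, and on the right all but Nid1, Thy1 and Tagln are above 0. The panels share the WT_TAM libraries and have different axes.

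Fibroblast markers that are no members were also read in this comparison. Of the 19, 10 had enough reads to be tested, and limma called all 10 higher in the tumor, against 23.1% of all genes. The 19 together summed to only 25.1 to 28.3 CPM in WT_SP. A marker nearly absent there can pass the minimum of reads only through WT_TAM, so the filter partly fixed this count and nothing is read from it. Prrx1 had 5.57 to 12.8 CPM in WT_TAM and 0.309 to 0.594 CPM in WT_SP. Pdpn had 232 to 397 CPM in WT_TAM and at most 0.704 CPM in WT_SP. Prrx1 and Pdpn passed the minimum of reads only through WT_TAM, so their calls are no support of their own. Spleen stroma markers stayed low in WT_SP, where Ccl21a, Wt1, Madcam1 and Tcf21 had means under 1 CPM. Of the pericyte and smooth muscle list, 4 genes were tested, with a median log2 fold change of -0.43. Limma called 1 of these 4 higher and 2 lower in WT_TAM, against 23.1% and 23.6% of all genes. The gene called higher was Cspg4, with 22.9 to 92.0 CPM in WT_TAM and 0 to 3.59 CPM in WT_SP (limma adjusted p = 0.000425). With 0 CPM in its lowest WT_SP library it passed the minimum of reads through WT_TAM, so its call is no support of its own. The part of stromal cells in the tumor and spleen difference was not tested.

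Other genes of the same pathways were read by lists in which no member stands. Of all genes tested, 23.1% were called higher and 23.6% lower in WT_TAM than in WT_SP, and each count below is to be read beside these shares. Among other collagen chains, 4 of the 12 tested were called higher and 3 lower. The largest changes were those of the network-forming chain Col8a1 (18.7 ± 6.12 against 0.142 ± 0.186 CPM, SD; log2 fold change 4.89, limma adjusted p = 6.71e-06) and of Col16a1 (4.53). Genes as low in WT_SP as Col8a1 passed the minimum of reads only through WT_TAM. Of 25 folding, processing and turnover genes, 21 were called higher and 1 lower, led by the prolyl hydroxylase P4ha2 (5.96) and Pcolce (4.82), the enhancer of procollagen C-proteinase. Of 12 basement membrane genes, 6 were called higher and 2 lower, Hspg2, perlecan, among those higher (3.58). Of 12 elastic fibre genes, 10 were called higher and 1 lower, led by Ltbp4 (4.74) and Emilin2 (4.07).

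Proteoglycans and matricellular genes gave 17 of 21 called higher and 0 lower, among them the most abundant matrix genes of the tumor libraries. Spp1, osteopontin, had 9449 ± 2987 CPM in WT_TAM and 4.06 ± 3.78 CPM in WT_SP (SD, n = 4 and 3; log2 fold change 11.29 ± 0.49, SE, limma adjusted p = 9.01e-07). Fn1, fibronectin, had 4648 ± 788 CPM and 34.1 ± 6.48 CPM (7.07 ± 0.21, SE; limma adjusted p = 3.46e-07). Of 13 TGF-beta and PDGF ligands and receptors, 5 were called higher and 3 lower, led by Pdgfa (4.91) and Tgfb3 (2.18). Of 9 collagen receptors, 6 were called higher and 1 lower, led by Ddr2 (4.85) and Mrc2 (3.19), an endocytic collagen receptor that also stands in the turnover list.

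Between KO_TAM and WT_TAM, no overlap with lower KO_TAM (8.69% of all genes tested) was seen for 5 of 10 other collagen chains, 7 of 25 folding and turnover genes, 2 of 10 basement membrane genes, 6 of 11 elastic fibre genes, 3 of 17 proteoglycans and matricellular genes, 1 of 13 TGF-beta and PDGF genes and 3 of 8 collagen receptors. Median log2 fold changes were -0.84, -0.67, -0.61, -1.31, -0.48, -0.04 and -0.14 in that order, and differences between the lists were not tested. No overlap with higher KO_TAM (6.37% of all genes tested) was seen for 1 of the 8 collagen receptors and for 0 genes of each other list. Spp1 and Fn1, which macrophages are known to make, had overlapping groups, with 5874 to 11861 CPM in WT_TAM and 4571 to 14410 CPM in KO_TAM for Spp1 and 3461 to 4768 and 2409 to 5699 CPM for Fn1. Col8a1 had 11.6 to 22.9 CPM in WT_TAM and 1.14 to 8.44 CPM in KO_TAM, and Pcolce had 46.5 to 140 and 9.41 to 28.6 CPM.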

How the data were processed

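RNA was sequenced in 11 libraries (4 WT_TAM, 4 KO_TAM and 3 WT_SP), grouped by their titles. The authors deposited 2 tables, 1 of 8 tumor libraries and 1 of 7 tumor and spleen libraries. The deposited values are treated as a score, since they are neither whole counts nor a named unit. The submitters' processing notes name mm10, and as tools DESeq2, HTSeq, SAMtools, HISAT, HISAT2 and TopHat2. The sources used here do not give their settings, the strand or the annotation. No sample column was left out.

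From the values, each cell equals whole reads (within 0.0002 reads) divided by gene length, library total and size factor, times a size factor that runs down the rows. Reads were recovered on this basis, 99.4% to 100.0% of each library's implied total. In the tumor table, 35 genes with altered values, none of them a member, were left out. As the unit is a score, the count test with edgeR planned for counts was not used.

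Log2(CPM + 0.5) was modelled per gene by limma 3.58.1 under R 4.3.3 (mean-variance trend, robust empirical Bayes), two-sided, with Benjamini-Hochberg adjustment over all genes tested and a threshold of 0.05. A gene was tested if it had 15 or more reads in all and, in a number of libraries no lower than the size of the smaller group, reached the CPM that 10 reads give in a library of median size. The code was tested on simulated data. Each comparison used its own table, and levels are compared only within a table. Gene positions are those of GENCODE vM21 (GRCm38, the assembly mm10), and all 42 identifiers matched.

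The members, the gene lists and the rule for named genes were chosen with earlier results of these data known. In each role, the 2 members highest per length in WT_TAM (all, in roles of up to 3) are given by library, with the member of smallest absolute log2 fold change. Of the pathway lists, the 2 called genes with the largest absolute log2 fold change in the tumor and spleen comparison are named, except 1 gene that is not reported here; other names there were chosen after their values were seen. Alternatives were the pseudocount, the read minimum, scaling, voom, library weights, a replicate block, a fit of all 3 groups, the deposited values as they stand, and leaving out libraries.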

Additional observations from a re-analysis of the deposited data

Results flagged for a closer look

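A library lay apart from the other 3 of its group by Dixon's criterion for 6 of 84 groups of 4 tumor libraries looked at (42 genes in WT_TAM and in KO_TAM), and chance marks about 1 group in 20. The WT_TAM values were those of Col3a1 and Lamb1 in replicate 2, at 566 and 38.9 CPM, and of Igfbp7, Bmp1 and Loxl2 in replicate 4, at 3.41, 22.9 and 5.27 CPM. In KO_TAM it was Tagln in replicate 2, at 3.20 CPM. Each of these libraries was above the others. For Tagln it was the library that was lowest for most members.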

How the results depend on the processing

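The count of genes called between KO_TAM and WT_TAM was 0 in the main analysis and with each single library left out, and rose to 98 with no read minimum, 379 with a weight per library, 80 with all 3 groups in 1 fit, and 65 without both WT_TAM replicate 4 and KO_TAM replicate 2. The cause was not tested. The median log2 fold change of the members between KO_TAM and WT_TAM stayed below 0 in all alternatives run, from -2.09 to -1.56 with a library left out. In the tumor and spleen comparison the members' median was 2.47 with a pseudocount of 2 CPM, 3.99 with voom, and 3.14 to 3.60 with a library left out. Between 4977 and 9134 genes, and between 35 and 38 members, were then called.

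Igfbp7, not called in the main analysis, changed sign in 7 settings: -0.29 with the library total alone, -0.43 with library weights, -0.25 with the replicate block and without WT_TAM replicate 4, -0.05 and -0.18 without WT_SP replicates 1 and 2 (0.44 without replicate 3), and -0.37 without both WT_TAM replicate 4 and WT_SP replicate 1, a setting chosen after seeing the data. For 7 members (Acta2, Bmp1, Col3a1, Fbln2, Fstl1, Igfbp4 and Lum) a call was lost in some setting, and Col12a1 and Tagln gained one. Replicate numbers did not pair the libraries (correlations of same-numbered deviations -0.16 to 0.20 in the tumor table and -0.09 to 0.10 in the other). With the replicate block, 0 genes were called between KO_TAM and WT_TAM, where the members' median was again -1.87, and 9115 genes and 35 members between tumor and spleen, where the median was 3.15 and Col3a1, Fbln2 and Fstl1 had limma adjusted p of 0.0513, 0.0566 and 0.0503. Genes of a few reads, such as Lum, Lox, Thbs2 and Mgp, are limited by depth.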

Other observations

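Some members are neighbours in the genome, and neighbours did not always have like values. There were 4 pairs within 200 kilobases of each other. Dcn and Lum lie 46984 bases apart on the plus strand of chromosome 10, and their log2 fold changes between KO_TAM and WT_TAM were -2.66 and -0.96. Per length, Dcn was 15.1, 26.6, 131 and 186 times Lum in WT_TAM replicates 1 to 4, where Lum had 48, 64, 6 and 7 reads. The ratio was 13.2, 44.3 and 13.2 in KO_TAM replicates 1, 3 and 4, and Lum had 0 reads in replicate 2. The log2 fold change of Lum is among those that the log2(CPM + 0.5) scale understates. Col3a1 and Col5a2 lie 24614 bases apart on chromosome 1 with their ends facing (-2.55 and -1.81), and Col6a2 and Col6a1 lie 85161 bases apart on chromosome 10 (-2.65 and -2.58). These values describe members that were partly chosen for this difference, and no test was made.

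Markers of other cells differed between the tumor groups as well. Endothelial markers summed to 83.2 to 96.0 CPM in WT_TAM and 114 to 207 CPM in KO_TAM, with Pecam1 higher in all KO_TAM libraries. Without Pecam1 the sums overlapped, at 33.9 to 64.2 CPM and 48.8 to 106 CPM. Neutrophil markers summed to 113 to 206 CPM in WT_TAM and 278 to 954 CPM in KO_TAM, and those of eosinophils, basophils and mast cells to 40.0 to 192 CPM and 203 to 700 CPM. Without Siglecf the latter sums overlapped, at 36.6 to 113 CPM and 99.8 to 213 CPM. The highest value of the neutrophil list and of the list with Siglecf was in KO_TAM replicate 2, the library lowest in matrix genes. None of these differences was tested as a sum.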
